A study of Mus musculus with 4 samples.

Results

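The 38 genes described here carry long-chain fatty acids into the heart muscle cell, activate them and break them down by beta-oxidation. They were taken by name: each symbol was matched to an Ensembl gene of the deposited count table, and all 38 were found among its 21552 genes. All 38 also passed the filter on low counts, so none was left out. The table covers hearts of 4 C57BL/6 mice with no other allele or treatment named. In 2 of them the left anterior descending coronary artery had been tied off permanently, and tissue was taken from the remote area, away from the infarct, at day 7. The other 2 mice were uninjured, and their hearts carry the same tissue label. The sources used here give neither the age and sex of the mice nor where in the uninjured hearts the tissue was taken. Polyadenylated RNA was sequenced, and levels are given as CPM, counts relative to a library size adjusted by TMM normalization factors.

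Beta-oxidation is the main source of ATP in the adult heart. Fatty acids cross the sarcolemma with the help of CD36 and transport proteins, are bound in the cytosol by heart-type fatty acid binding protein and are joined to coenzyme A by acyl-CoA synthetases. The carnitine shuttle moves long-chain acyl groups into the mitochondrial matrix, and malonyl-CoA limits this entry at the outer membrane. In the matrix a repeating cycle of dehydrogenation, hydration, a further dehydrogenation and thiolysis shortens the chain and passes electrons to the respiratory chain, while peroxisomes hold a separate set of enzymes for very long and branched chains.

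The libraries held 35715115 to 70885393 counts, of which genes of the mitochondrial genome took 36.7% to 48.4%. Defining cardiomyocyte markers such as Myh6 and Ryr2 were abundant in all 4 libraries. Infarcted replicate 2 stood apart in its tissue markers. Its 5 atrial markers summed to 2009 CPM, against 49.5 to 295 CPM in the other libraries, with Sln and Mybphl at 0 in infarcted replicate 1. Its 6 adipocyte markers summed to 13.1 CPM, against 0.180 to 1.56 CPM, and Lep was at 0 there. The part these tissues play in the results below was not tested, and results that rest on this library are given without it.

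Most of the pathway was lower in infarcted hearts. Of the 38 genes 30 fell, 2 rose (Acsl4 and Acsl5) and 6 were not called, by the edgeR quasi-likelihood test at a Benjamini-Hochberg adjusted p below 0.05 over all 13905 genes tested. Over all genes tested 14.6% were called lower and 18.3% higher. The median log2 fold change of the 38 genes was -0.93, against 0.02 for all genes, and 35 of the 38 lay below 0. The groups did not overlap for 36 of them (all but Cd36 and Acad10), where 70.0% of all genes did not overlap. The summed level of the 38 genes was 9276 and 9914 CPM in infarcted and 16111 and 20698 CPM in uninjured hearts.

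How many genes were called depended on uninjured replicate 2. When it was left out, edgeR called 0 of the 38 genes in either direction, 30 being lower and 2 higher at an unadjusted p below 0.05, and it called 0.056% of all genes lower. DESeq2 on the same 3 libraries called 22 of the 38 lower and 0 higher, where it called 4.47% of all genes lower; of the 30 genes that fell it did not call Slc27a1, Cpt1b, Acadl, Eci2, Acot1, Acot2, Acaa1a and Ehhadh. All 35 genes below 0 with every library stayed below 0 in both of these fits, and the median was -0.76 in edgeR. On a scale of library totals alone the median of all genes moved from 0.02 to 0.36, and 18 of the 38 genes were called lower, against 5.65% of all genes. The median of the 38 genes relative to that of all genes was -0.94 on that scale and -0.94 on the TMM scale.

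Markers of cell types moved as well. Of 9 cardiomyocyte markers 3 fell, Pln, Mb and Tnnt2, and the median of the 9 log2 fold changes was -0.56. The other 6 were not called. Their log2 fold changes were -0.61 for Myh6, -0.56 for Myoz2, -0.20 for Ryr2, -0.02 for Actn2, -0.01 for Myom1 and 0.17 for Ttn. The summed level of the 9 was 28966 and 26374 CPM in infarcted and 41875 and 48732 CPM in uninjured hearts. Myh6, Mb and Tnnt2 had the highest levels among them. All 8 macrophage markers rose (median 1.43), their sum being 465 and 485 CPM in infarcted and 195 and 169 CPM in uninjured hearts. Of 8 fibroblast markers 4 rose (Dpt, Lum, Col1a1 and Postn), with a median of 0.92 for the 8. The other 4 were not called, at 0.66 for Dcn, 0.63 for Pdgfra, 0.31 for Tcf21 and -0.51 for Gsn. The sums of the 8 were 4537 and 4063 CPM in infarcted and 1372 and 1798 CPM in uninjured hearts. Col1a1 alone stood at 1883 and 1211 CPM in infarcted and 76.3 and 82.9 CPM in uninjured hearts. The 8 endothelial markers had edgeR adjusted p from 0.0658 to 0.985, with a median log2 fold change of -0.05 and sums of 1371 and 1227 CPM in infarcted and 1178 and 1234 CPM in uninjured hearts. In such bulk samples fewer cells of a type and less RNA per cell cannot be told apart, and the part of cell makeup in the falls below was not tested.

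**Figure D1:**
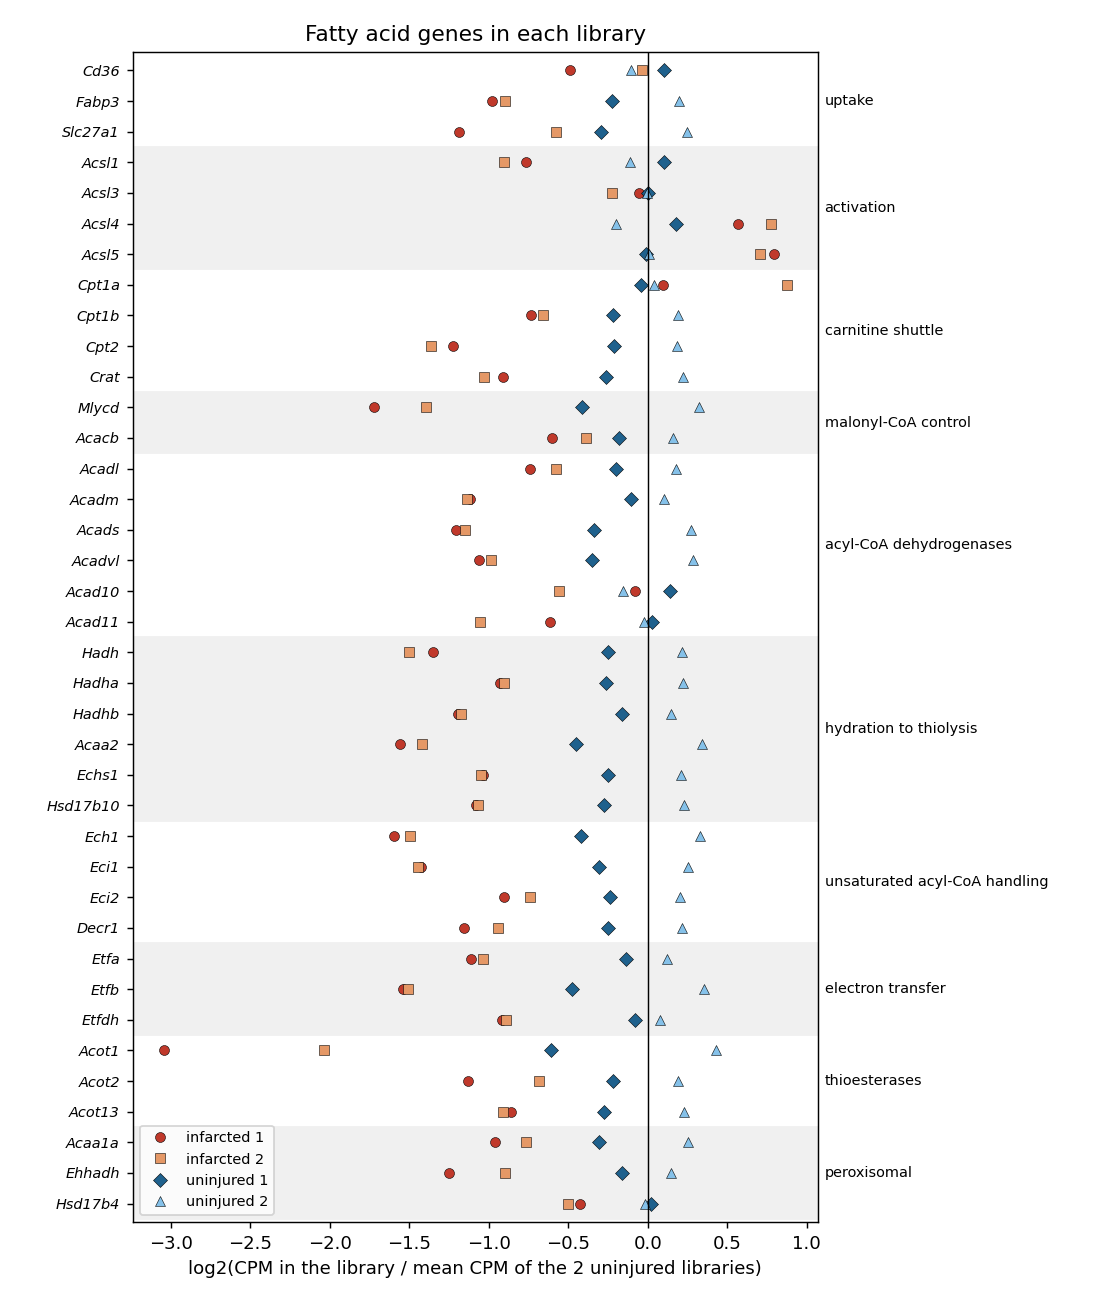
Level of each of the 38 genes in each library, as the log2 ratio of its CPM to the mean CPM of the 2 uninjured libraries (horizontal axis), with genes grouped by role. Red and orange points are infarcted replicates 1 and 2, dark and light blue points are uninjured replicates 1 and 2; the infarcted points lie left of both uninjured points for most genes, while Acsl4, Acsl5 and Cpt1a lie to the right.

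Of the 3 uptake genes 2 fell. Fabp3, the cytosolic fatty acid carrier of heart muscle, stood at 1531 and 1624 CPM in infarcted and 2588 and 3458 CPM in uninjured hearts. Infarcted hearts lay below both uninjured ones, and Fabp3 fell by 0.94 ± 0.26 (edgeR adjusted p = 0.0134). Slc27a1, a membrane transport protein that also activates fatty acids, stood at 50.0 and 76.3 CPM in infarcted and 92.5 and 135 CPM in uninjured hearts. It fell by 0.85 ± 0.25 (edgeR adjusted p = 0.0219), and the higher infarcted value lay just below the lower uninjured one. Cd36, the main fatty acid translocase of the sarcolemma, had a log2 fold change of -0.25 ± 0.25 (edgeR adjusted p = 0.479). Its levels were 959 and 1317 CPM in infarcted and 1446 and 1253 CPM in uninjured hearts, so that infarcted replicate 2 lay between the uninjured libraries. Both calls were sensitive to single libraries. Without infarcted replicate 1 or 2 the adjusted p of Fabp3 was 0.0623 or 0.0565, and with the trend of counts with transcript length removed it was 0.151. That of Slc27a1 was 0.113 without infarcted replicate 1 and 0.0615 without uninjured replicate 1.

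The acyl-CoA synthetases split by isozyme. Acsl1, the main long-chain synthetase of the heart, fell, Acsl4 and Acsl5 rose, and Acsl3, which acts at lipid droplets, was not called. Acsl1 stood at 505 and 459 CPM in infarcted and 921 and 794 CPM in uninjured hearts, and it fell by 0.83 ± 0.22 (edgeR adjusted p = 0.0127). Acsl5, an isozyme of the outer mitochondrial membrane and endoplasmic reticulum, stood at 27.2 and 25.6 against 15.6 and 15.8 CPM, infarcted against uninjured. It rose by 0.75 ± 0.19 (edgeR adjusted p = 0.00923), with both libraries of each group close to each other. Acsl4, which prefers arachidonic acid, stood at 19.8 and 23.0 against 15.1 and 11.7 CPM and rose by 0.68 ± 0.21 (edgeR adjusted p = 0.0247). Acsl3 had a log2 fold change of -0.14 ± 0.23 (edgeR adjusted p = 0.678), at 6.32 and 5.60 against 6.58 and 6.55 CPM.

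Per kilobase of transcript Acsl1 remained the most abundant synthetase. Its share of the 4 isozymes was 91.7% and 90.9% in infarcted and 96.6% and 96.4% in uninjured hearts. The share of Acsl5 was 4.53% and 4.66% in infarcted and 1.5003% and 1.76% in uninjured hearts, and that of Acsl4 was 2.66% and 3.36% in infarcted and 1.17% and 1.05% in uninjured hearts. These shares did not overlap between groups, but an exact two-sided permutation test of 2 against 2 libraries cannot go below p = 0.333, the value each share gave. Both rises lost their call in edgeR when an infarcted library was left out. The adjusted p of Acsl4 was 0.077 without infarcted replicate 1, 0.209 without infarcted replicate 2 and 0.0555 with the length trend removed. That of Acsl5 was 0.117 and 0.0503 without infarcted replicates 1 and 2, and that of Acsl1 was 0.108 without infarcted replicate 2. All 8 macrophage markers were higher in the same libraries as Acsl4 and Acsl5, and their part in these rises was not tested.

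**Figure D2:**
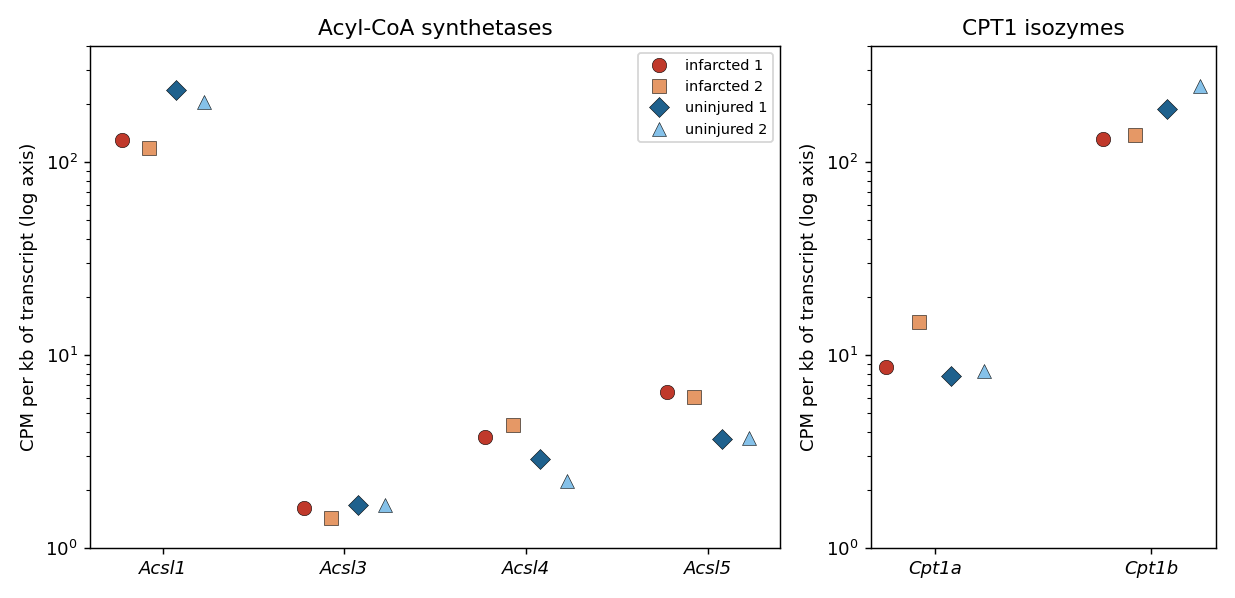
Levels of the 4 long-chain acyl-CoA synthetases (left) and the 2 isozymes of carnitine palmitoyltransferase 1 (right) in each library, in CPM per kilobase of the longest coding transcript on a log axis. Each point is 1 library. Acsl1 and Cpt1b are lower in the infarcted libraries, and Acsl4 and Acsl5 are higher. Cpt1a is highest in infarcted replicate 2 and only slightly above the uninjured libraries in infarcted replicate 1.

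The carnitine shuttle fell in 3 of 4 genes. Cpt2, which rebuilds acyl-CoA on the matrix side, stood at 109 and 98.6 CPM in infarcted and 219 and 288 CPM in uninjured hearts and fell by 1.29 ± 0.21 (edgeR adjusted p = 0.00075). Cpt1b, the muscle isozyme of the rate-limiting outer membrane step, stood at 379.9 and 400.04 CPM in infarcted and 543 and 719 CPM in uninjured hearts. It fell by 0.69 ± 0.23 (edgeR adjusted p = 0.0326), the smallest fall called in the shuttle. Crat, which exchanges short acyl groups such as acetyl between coenzyme A and carnitine, stood at 298 and 275 against 467 and 656 CPM and fell by 0.97 ± 0.23 (edgeR adjusted p = 0.00681). Cpt1a, the isozyme that prevails in liver, had a log2 fold change of 0.54 ± 0.24 (edgeR adjusted p = 0.108). It was listed at 37.1 and 63.6 CPM in infarcted and 33.7 and 35.8 CPM in uninjured hearts. Infarcted replicate 1 thus lay just above both uninjured libraries, and infarcted replicate 2 well above the rest. Infarcted replicate 2 is the library with the high atrial and adipocyte markers, whose part in this value was not tested. Without infarcted replicate 1 Cpt1a was called higher, at 0.79 (edgeR adjusted p = 0.0297), and without infarcted replicate 2 it stood at 0.07 (adjusted p = 0.9). Per kilobase Cpt1b was the more abundant isozyme throughout, the share of Cpt1a being 6.15% and 9.64% in infarcted and 3.9994% and 3.23% in uninjured hearts. The adjusted p of Cpt1b was 0.122 without infarcted replicate 1 and 0.117 without infarcted replicate 2.

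Among the 38 genes 2 act on malonyl-CoA, the inhibitor of the outer membrane step. Both were below 0, and 1 was called. Acaca, the other acetyl-CoA carboxylase gene, is outside the 38 and had a log2 fold change of 0.31 (edgeR adjusted p = 0.262). Mlycd, malonyl-CoA decarboxylase, which removes the inhibitor, stood at 31.9 and 39.9 CPM in infarcted and 78.9 and 131 CPM in uninjured hearts. It fell by 1.55 ± 0.25 (edgeR adjusted p = 0.000901), 2.93-fold, and was the gene with the largest fall of the 38 after Acot1. Acacb, the acetyl-CoA carboxylase at the mitochondrial surface that makes the inhibitor, stood at 212 and 246 CPM in infarcted and 283 and 359.5 CPM in uninjured hearts and had a log2 fold change of -0.49 ± 0.22 (edgeR adjusted p = 0.101). DESeq2 called Acacb lower (adjusted p = 0.0432), as did edgeR with the length trend removed (adjusted p = 0.0256).

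The 4 mitochondrial acyl-CoA dehydrogenases of straight chains chosen here, Acadm, Acads, Acadvl and Acadl, which open each turn of the cycle, all fell. Acad9, a further acyl-CoA dehydrogenase outside the chosen genes, had a log2 fold change of -0.48 (edgeR adjusted p = 0.0582). Acadm, the medium-chain enzyme, stood at 512 and 505 CPM in infarcted and 1032 and 1192 CPM in uninjured hearts and fell by 1.13 ± 0.23 (edgeR adjusted p = 0.00246). The infarcted libraries were within 2% of each other and at less than 50% of either uninjured one. Acads, for short chains, stood at 73.7 and 76.7 against 135 and 206 CPM and fell by 1.18 ± 0.23 (edgeR adjusted p = 0.00186). Acadvl, the very-long-chain enzyme of the inner membrane, stood at 292 and 308 against 478 and 741 CPM and fell by 1.02 ± 0.25 (edgeR adjusted p = 0.00689). Acadl, the long-chain enzyme, moved least of the 4, from 994 ± 183 to 630.1 ± 51.3 CPM (SD, n = 2 per group), and fell by 0.66 ± 0.24 (edgeR adjusted p = 0.0462). Its adjusted p was 0.198, 0.127 and 0.0815 without infarcted replicate 1, without infarcted replicate 2 and with the length trend removed. Of the less studied relatives Acad11 fell by 0.82 ± 0.21 (edgeR adjusted p = 0.00952), at 106 and 78.1 against 165 and 159.5 CPM. Acad10 stood at 2.30 and 1.65 against 2.67 and 2.18 CPM, the lowest level of any member in uninjured hearts. It had a log2 fold change of -0.29 ± 0.33 (edgeR adjusted p = 0.527). The adjusted p of Acad11 was 0.141 without infarcted replicate 2 and 0.0734 without uninjured replicate 1.

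The later steps of the mitochondrial cycle fell in 6 of 6 genes, with log2 fold changes from -1.49 to -0.92. Acaa2, the thiolase that releases acetyl-CoA, stood at 216 and 238 CPM in infarcted and 467 and 808 CPM in uninjured hearts and fell by 1.49 ± 0.27 (edgeR adjusted p = 0.00143). Hadh, the hydroxyacyl-CoA dehydrogenase of shorter chains, stood at 222 and 199 CPM in infarcted and 474 and 656 CPM in uninjured hearts and fell by 1.42 ± 0.23 (edgeR adjusted p = 0.0007). Both were more than 2.5-fold lower. Echs1, the short-chain enoyl-CoA hydratase, stood at 148 and 147 against 256 and 352 CPM and fell by 1.04 ± 0.22 (edgeR adjusted p = 0.00326). Hsd17b10, a matrix dehydrogenase that also serves isoleucine breakdown and mitochondrial RNase P, stood at 48.5 and 49.0 against 84.8 and 120.2 CPM and fell by 1.07 ± 0.21 (edgeR adjusted p = 0.00201).

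Hadha and Hadhb encode the alpha and beta subunits of the trifunctional protein, which carries out the last 3 steps on long chains. Hadha stood at 695 and 705 CPM in infarcted and 1101 and 1542 CPM in uninjured hearts and fell by 0.92 ± 0.24 (edgeR adjusted p = 0.0119). Hadhb stood at 664 and 673 CPM in infarcted and 1357 and 1678 CPM in uninjured hearts and fell by 1.18 ± 0.24 (edgeR adjusted p = 0.0024). Per kilobase the alpha subunit was the less abundant of the pair, Hadha making up 34.8% and 34.8% in infarcted and 29.3% and 31.9% in uninjured hearts. This order rests on the lengths used, 4017 bases for Hadha and 2048 for Hadhb. In CPM Hadha lay above Hadhb in both infarcted libraries. For Hadhb 62.4% of the 50-base words of the transcript also occur in other genes. The shares of Hadha did not overlap between groups, at the smallest exact permutation p that 2 against 2 allows (0.333, two-sided). The adjusted p of Hadha was 0.0558 without infarcted replicate 2.

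The pair lies head to head on chromosome 5, Hadha at chr5:30118304-30155162 on the minus strand and Hadhb at chr5:30155248-30184593 on the plus strand (GRCm38, GENCODE M21). By RefSeq (GRCm38.p6) their starts are 273 bases apart, so that on that annotation a single stretch lies upstream of both. By GENCODE M21 the part of the stretch up to chr5:30155162 lies inside Hadha. The stretch is shown because both genes fell together. Hadha, the 250 bases before its start (chr5:30154981-30155230, minus strand):
Hadha: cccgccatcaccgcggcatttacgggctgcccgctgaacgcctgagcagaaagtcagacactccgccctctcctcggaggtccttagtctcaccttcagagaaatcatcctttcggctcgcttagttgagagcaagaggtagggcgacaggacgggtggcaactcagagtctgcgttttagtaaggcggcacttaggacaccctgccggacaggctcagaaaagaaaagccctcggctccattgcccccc
RefSeq start-site windows, from 250 bases before to 50 bases after a start, were found for 32 of the 38 genes, in 35 windows. They were searched on both strands for AGGTCA, the core motif that nuclear receptors such as the PPAR and ERR families bind. It was present in 6 of 35 windows (17.1%), close to the 16.3% of all 32851 windows, and absent from the Hadha stretch above. The longer TCAAGGTCA was in 0 of the members' windows and 0.423% of all, and the direct repeat of AGGTCA with 1 base between the copies (DR1) in 0 and 0.0396%; both contain AGGTCA. Printed are the matches before RefSeq starts of 3 genes that fell and of 2 uptake and entry genes that were not called. The motif, or its reverse complement TGACCT, is in capitals, with up to 24 bases on each side.
Acadm (chr3:153944863-153944893, minus strand): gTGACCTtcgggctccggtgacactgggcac
Acadvl (chr11:70015486-70015539, minus strand): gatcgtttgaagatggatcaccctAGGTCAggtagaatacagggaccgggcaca
Echs1 (chr7:140116475-140116528, minus strand): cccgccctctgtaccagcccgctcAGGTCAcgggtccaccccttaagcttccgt
Cd36 (chr5:17836095-17836146, minus strand): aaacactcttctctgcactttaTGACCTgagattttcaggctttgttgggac
Cpt1a (chr19:3323183-3323236, plus strand): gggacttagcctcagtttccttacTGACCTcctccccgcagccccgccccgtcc
The sixth match lay 43 bases after the RefSeq start of Acacb. By GENCODE M21 the sites of Cd36, Cpt1a and Acacb lie inside the genes. Cd36 starts there at chr5:17888801 (minus strand), Cpt1a at chr19:3322334 and Acacb at chr5:114146535 (both plus strand). The motif thus occurred before RefSeq starts of genes that fell and of genes that were not called, for the latter inside the GENCODE gene.

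All 4 genes that handle double bonds in unsaturated chains fell, with a median of -1.24. Ech1, a dienoyl-CoA isomerase, stood at 384 and 412 CPM in infarcted and 865 and 1453 CPM in uninjured hearts. It fell by 1.54 ± 0.27 (edgeR adjusted p = 0.00104), 2.92-fold. Eci1, the mitochondrial enoyl-CoA isomerase, stood at 67.3 and 66.3 against 146 and 215 CPM and fell by 1.43 ± 0.22 (edgeR adjusted p = 0.000459), the smallest p of the 38. Decr1, the mitochondrial dienoyl-CoA reductase, stood at 147 and 171 against 275 and 380.3 CPM and fell by 1.05 ± 0.23 (edgeR adjusted p = 0.00372). Eci2, an isomerase found in mitochondria and peroxisomes, stood at 42.4 and 47.6 against 67.3 and 91.6 CPM and fell by 0.82 ± 0.20 (edgeR adjusted p = 0.0077).

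Electrons from the dehydrogenases pass through the electron transfer flavoprotein, and all 3 genes of this transfer fell. Etfb, the beta subunit, stood at 145 and 148 CPM in infarcted and 303 and 539 CPM in uninjured hearts and fell by 1.52 ± 0.27 (edgeR adjusted p = 0.00124). Etfa, the alpha subunit, stood at 227 and 239 CPM in infarcted and 447 and 534 CPM in uninjured hearts and fell by 1.08 ± 0.22 (edgeR adjusted p = 0.00248). Etfdh, which hands the electrons to ubiquinone, stood at 317 and 322 against 565 and 632 CPM and fell by 0.91 ± 0.22 (edgeR adjusted p = 0.0064). The subunits were less evenly matched in uninjured replicate 2: the share of Etfb in the pair, per kilobase, was 49.9% and 49.1% in infarcted and 51.4% and 61.1% in uninjured hearts.

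The 3 thioesterases, which split acyl-CoA back into fatty acid and coenzyme A, also fell. Acot1, the cytosolic enzyme, showed the largest fall of the 38 genes at a low level, 0.580 and 1.17 against 3.13 and 6.43 CPM. It fell by 2.47 ± 0.44 (edgeR adjusted p = 0.00222), 5.52-fold, although replicates within each group differed by about 2-fold. On the log2 scale it stood at -1.85 without uninjured replicate 2 (edgeR adjusted p = 0.109) and at -3.06 without infarcted replicate 2. Acot2, its matrix counterpart, stood at 14.4 and 19.6 against 27.1 and 35.9 CPM and fell by 0.89 ± 0.22 (edgeR adjusted p = 0.00849). The genes are tandem neighbours on chromosome 12, Acot2 at chr12:83987861-83993873 and Acot1 at chr12:84009490-84018371 (GRCm38), and 23.9% of the 50-base words of the Acot1 transcript also occur in Acot2, so the split of reads between them is uncertain. Acot13, a small thioesterase found with mitochondria, stood at 121 and 116 against 181 and 257 CPM and fell by 0.89 ± 0.22 (edgeR adjusted p = 0.0077). With the length trend removed Acot13, one of the shortest transcripts of the pathway, was not called, at -0.27 (edgeR adjusted p = 0.211), and Acot2 had an adjusted p of 0.0618 without infarcted replicate 1.

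Of the 3 peroxisomal enzymes 2 fell. Ehhadh, the L-bifunctional enzyme induced by PPAR-alpha ligands in liver, stood at 5.68 and 7.27 CPM in infarcted and 12.1 and 14.96 CPM in uninjured hearts and fell by 1.07 ± 0.23 (edgeR adjusted p = 0.00369). Acaa1a, the peroxisomal thiolase, stood at 6.60 and 7.58 CPM in infarcted and 10.4 and 15.3 CPM in uninjured hearts and fell by 0.86 ± 0.24 (edgeR adjusted p = 0.015). Hsd17b4, the D-bifunctional enzyme, had a log2 fold change of -0.46 ± 0.18 (edgeR adjusted p = 0.0646). Its levels of 60.3 and 57.2 CPM in infarcted and 82.0 and 80.0 CPM in uninjured hearts did not overlap and were tight within groups, and DESeq2 called it lower (adjusted p = 0.0431). Hsd17b4 was the peroxisomal gene with the highest level, and Acaa1a, Ehhadh and Acsl3 were among the 7 least abundant of the 38 per kilobase.

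Set side by side, 16 of 16 enzymes of a chosen mitochondrial class fell (median -1.10), and 2 of 3 peroxisomal ones (median -0.86). Over all genes tested 14.6% were called lower. With 3 genes in one class the difference was not tested. The 16 were Cpt2, Acadl, Acadm, Acads, Acadvl, Hadh, Hadha, Hadhb, Acaa2, Echs1, Hsd17b10, Eci1, Decr1, Etfa, Etfb and Etfdh. Cpt1a, Cpt1b, Acacb, Acad10, Acot1, Acot2 and Acot13 were placed in no class. Of these Cpt1a, Acacb and Acad10 were not called. The mean log2 CPM of the mitochondrial class lay above that of the peroxisomal class by 3.98 and 3.85 in the infarcted libraries and by 4.16 and 4.35 in the uninjured ones, a narrower gap in both infarcted hearts. With the length trend removed the medians were -0.98 and -0.91, nearly the same. The 5 genes placed in both organelles or with an unsure location (Ech1, Eci2, Crat, Mlycd and Acad11) all fell, with a median of -0.97. In a wider list of 34 peroxisomal genes, of which 32 were tested, 14 fell and 0 rose, with a median of -0.55. Those with the smallest p were the assembly factor Pex6, which fell by 1.26 ± 0.23, the racemase Amacr, by 1.17 ± 0.21, phytanoyl-CoA hydroxylase (Phyh), by 1.14 ± 0.22, and the import receptor Pex7, by 0.92 ± 0.20.

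**Figure D3:**
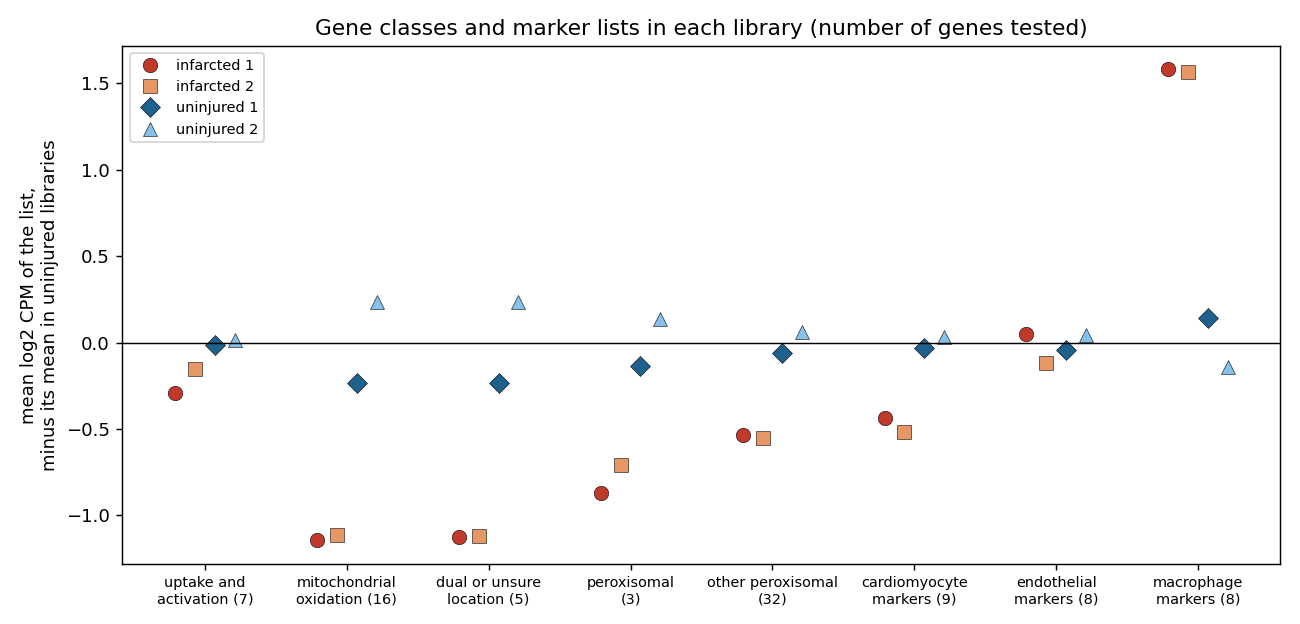
Mean log2 CPM of 5 gene classes and 3 marker lists in each library (vertical axis), minus its mean over the 2 uninjured libraries; the number of genes tested stands in brackets. Each point is 1 library; in both infarcted libraries the mitochondrial enzymes and the genes of dual or unsure location lie below the other lists plotted, uptake and activation genes are nearer 0, and the uninjured libraries are farther apart for mitochondrial enzymes than for cardiomyocyte markers.

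Uptake and activation were mixed as a class. Of their 7 genes 3 fell (Fabp3, Slc27a1 and Acsl1), 2 rose and 2 were not called, and the median was -0.25 against -1.10 for the 16 mitochondrial enzymes. The mean log2 CPM of the 7 genes minus that of the enzymes was -1.003 and -0.90 in infarcted hearts and -1.63 and -2.08 in uninjured ones. Fabp3 and Acsl1 fell by amounts within the range of the enzymes, and the median of the class is the value of Cd36. The difference between the class medians, 0.86, was 0.55 without uninjured replicate 2 and 1.16 without uninjured replicate 1. It was 0.64 without infarcted replicate 2 and 0.87 without infarcted replicate 1. Without infarcted replicate 2 the median of the uptake and activation genes was -0.52.

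Per kilobase of transcript, levels in uninjured hearts ranged from 3673 CPM for Fabp3 to 0.634 CPM for Acad10. After Fabp3 came Ech1 at 915, Hadhb at 741, Acadm at 543, Acadl at 519 and Etfb at 471 CPM per kilobase; Acadm, Acadl and Etfb did not differ beyond the spread of their libraries. Among the 19 more abundant genes 18 fell and 0 rose, Cd36 being the one not called. Among the 19 less abundant genes 12 fell and 2 rose. Acad10, Acsl3, Acsl4 and Acsl5, which rose or were not called, were 4 of the 5 genes with the lowest levels.

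Of 25 further genes of fatty acid handling and neighbouring acyl-CoA breakdown 12 fell and 4 rose, with a median of -0.57. The 4 with the smallest p were Gcdh, of lysine breakdown, at -1.23 ± 0.21, Acad12, at -1.19 ± 0.21, Ivd, of leucine breakdown, at -1.14 ± 0.22, and Cpt1c, the isozyme best known from brain, which rose by 1.43 ± 0.25 (log2, edgeR adjusted p from 0.000917 to 0.0019). Cpt1c stood at 6.36 and 6.53 against 2.40 and 2.39 CPM, a low level beside Cpt1b. Of 14 transcriptional regulators of the pathway 3 fell and 1 rose, where 14.6% of all genes tested were called lower and 18.3% higher. Rxrg, a partner receptor of the PPAR family, fell by 1.54 ± 0.23, from 59.4 to 20.4 CPM, Esrra, an estrogen-related receptor, fell by 0.87 ± 0.20, and the mitochondrial DNA factor Tfam fell by 0.62 ± 0.19. Hif1a, the oxygen-regulated factor, rose by 0.92 ± 0.22. Ppara and Ppargc1a, which drive the genes of beta-oxidation in muscle, were not called, at -0.14 and -0.24 on the log2 scale.

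The 38 genes varied more between the uninjured hearts than between the infarcted ones. The median absolute log2 difference of the genes was 0.41 between the uninjured libraries and 0.14 between the infarcted ones, and 31 of the 38 were higher in the second uninjured heart than in the first. The difference was largest for Acot1 at 1.04, Etfb at 0.83, Acaa2 at 0.79 and Ech1 at 0.75, and Cd36, Acsl1, Acsl4 and Acad10 went the other way by more than 0.2. This difference followed transcript length over all genes. The median log2 difference of uninjured replicate 2 from replicate 1 was 0.47 for genes whose longest transcript has up to 1000 bases and -0.14 for those over 4000 bases. With the trend with length removed in every library edgeR called 28 of the 38 genes lower and 1 higher. Their median was then -0.88, against -0.006 for all genes. The share of all genes called in that fit was not taken, so this count has no background beside it. Fabp3, Acadl and Acot13 were no longer called lower and Acacb was called. Of the 7 genes with the largest falls Acot1 was then at -2.37, Mlycd at -1.51 and Hadh at -1.48, near their values without the correction. The other 4 fell by less but were still called, with Ech1 at -1.13, Acaa2 at -1.16, Eci1 at -0.99 and Etfb at -0.96.

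**Figure D4:**
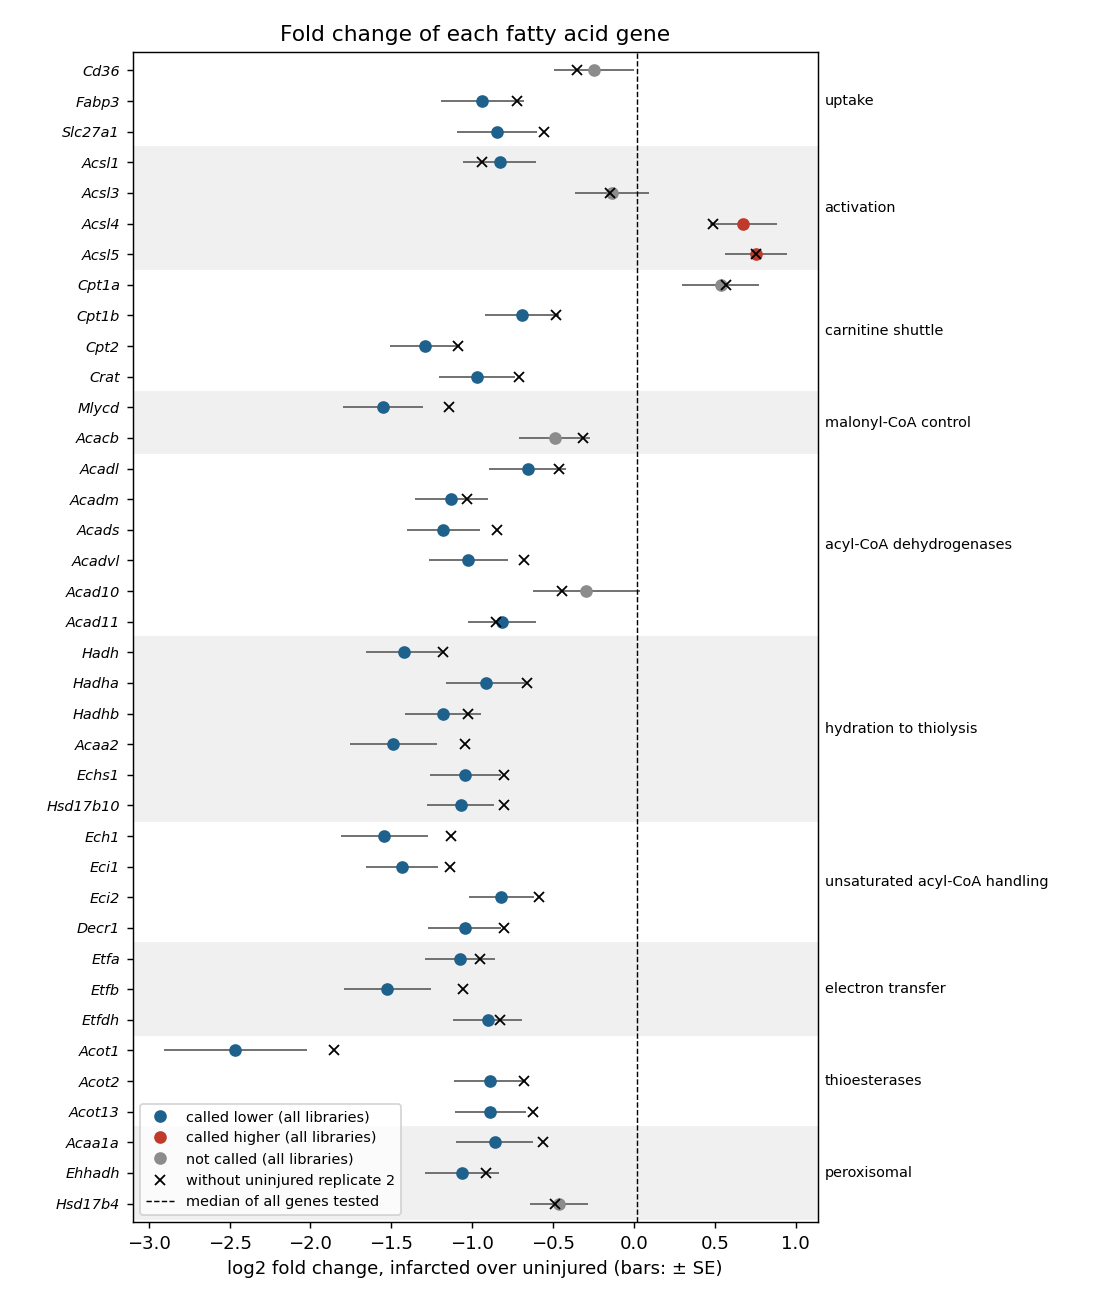
Log2 fold change of each of the 38 genes, infarcted over uninjured, with bars of ± SE, grouped by role. Blue and red points are genes called lower and higher with all libraries, grey points are not called, crosses give the fold change without uninjured replicate 2 and the dashed line the median of all genes tested (0.02); nearly all crosses of the genes that fell lie nearer 0 and on the same side.

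The same libraries also gave the inclusion of alternative exons and splice sites. Of the events in the 38 genes 55 in 22 genes had enough reads (34 exons and 21 splice sites). None was called, nor was any of the 8426 events tested over all genes (0%), by the edgeR test of form by group, although 546 had an unadjusted p below 0.05; limma on the logit called 0 as well. Among the 38 genes 2 events had an unadjusted p below 0.05, and 52 of 55 differed by under 5 percentage points between groups. The use of a 5' splice site of Acads (mm9 chromosome 5, 115568969) was 0% in both infarcted libraries, on 81 and 59 reads, and 4.13% and 3.39% in the uninjured ones, on 121 and 236 reads. A 5' splice site of Fabp3 (mm9 chromosome 4, 129986225) was at 0% in both infarcted libraries and at 27.3% and 7.69% in the uninjured ones, on only 21 to 26 reads a library. Both sites had an adjusted p of 0.752. A 70-base exon of Cd36 (mm9 chr5:17304047-17304116) was included at 99.8% or more in every library. A 107-base exon of Slc27a1 (mm9 chr8:74093241-74093347) was included at 52.9% and 60.9% in infarcted and 26.8% and 48.0% in uninjured hearts, with an adjusted p of 0.801. No difference in splicing of these genes was detectable at this depth.

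Reads of 50 bases can be shared between genes. In 19 of the 38 genes no 50-base word of the longest coding transcript occurs in a transcript of another gene, and 14 of these fell. In 9 genes at least 20% of the words are shared. For Cpt1b (93.0%) and Etfb (67.3%) the other gene overlaps the same exons, and for Hadhb (62.4%) it is the locus Gm13910; none of these partners has a row of its own in the count table. Acaa1a shares 34.0% with Acaa1b, which had at most 4 counts in any library. Acad10 shares 20.4% with Acad12, Acadvl 24.02% with its neighbour Dvl2, and Fabp3 29.2% with its pseudogene Fabp3-ps1. The sources used here do not say how the counting assigned such reads, so the levels of these 9 genes are less certain than the rest.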

How the data were processed

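Polyadenylated RNA of 2 infarcted and 2 uninjured mouse hearts was sequenced as single-end 50 bp reads on a GAII, per the labels' protocols. The authors deposited a table of raw counts for each Ensembl gene. They also deposited the percent inclusion of exons and percent use of splice sites per library, with corrected inclusion and exclusion reads in text cells (other), on mm9 per the submitters' processing notes. Aligner and counter were not given in the sources used here. Symbols, lengths and GRCm38 positions came from GENCODE M21, which matched 20450 of 21552 genes, and start-site windows from RefSeq.

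Counts were tested in edgeR 4.0.16 (TMM, filterByExpr by group, robust quasi-likelihood F-test, no covariates) in R 4.3.3, with Benjamini-Hochberg adjustment over all 13905 genes tested. The SE is the absolute log2 fold change over the square root of F. With 2 residual degrees of freedom the spread is shared across genes; the common biological coefficient of variation was 19.3%. Levels between genes were compared per kilobase of the longest coding transcript. Splicing events needed 10 reads in each library and 5 per form; of 2 alternative sites 1 was tested, and reads were rounded. In simulated counts of this comparison on 13764 genes, 49 of 100 genes changed 2-fold and 100 of 100 changed 4-fold were recovered. The named genes are all 38 members, the 4 events and the 4 genes of each related list with the smallest p; a few others were named after their values were seen (among them Ppara and Ppargc1a). Alternatives were other scales, filters, DESeq2 1.42.0, limma-voom 3.58.1, a replicate block, leaving out each library, leaving out mitochondrially encoded genes and removal of the length trend. The members and lists were chosen with earlier results of these data known.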

Additional observations from a re-analysis of the deposited data

How the results depend on the processing

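With RLE factors, no or another low-count filter, limma-voom or without mitochondrially encoded genes, all 38 genes kept their direction and their side of the threshold. DESeq2 on all libraries added Acacb and Hsd17b4 to the genes called lower. With library totals alone 18 genes were called lower, the median was -0.58, and Cd36, Acsl3 and Acad10, none of them called, changed sign, to 0.11, 0.21 and 0.043; the shift of all genes on that scale is given above. With the length trend removed 1 gene was called higher and the mitochondrial minus peroxisomal difference of medians moved from -0.24 to -0.072. When each library was left out in turn, edgeR called 0 to 28 genes lower and 0 to 2 higher, and DESeq2, added after the data were seen, 22 to 31 and 0 to 2. Shares of all genes called are given above only for the fits without uninjured replicate 2. Over the fits that leave out a library the median ran from -1.14 to -0.76 in edgeR and from -1.16 to -0.78 in DESeq2. The mitochondrial minus peroxisomal difference ran from -0.34 to -0.175 in edgeR and from -0.34 to -0.17 in DESeq2, and the uptake and activation minus oxidation difference from 0.55 to 1.16 and from 0.545 to 1.16. These fits leave 1 sample in a group, which is taken to vary like the other group; the cause of the lost calls was not tested. Splicing calls in the 38 genes stayed at 0 with 20 reads per library, with limma on the logit and with any library left out.

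The labels give both groups replicate numbers 1 and 2, which pair no animals. Deviations of same-numbered libraries correlated at 0.108, and with the replicate number as a block 29 genes were called lower and 2 higher, Acadl losing its call, with a median of -0.91 and class differences of -0.26 and 0.84. Few mice limit the precision of every value, and few reads that of the splicing events.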
